A study of Mus musculus with 3 samples.

Results

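The 41 genes described here encode lysosomal hydrolases with their activator proteins, lysosomal membrane proteins, progranulin and the transcription factor TFEB. They are a list of gene symbols chosen by name, and each of the 41 matched 1 of the 55536 genes of the GENCODE M21 annotation, of which 22015 are nuclear-encoded protein-coding genes. RNA came from bone-marrow-derived macrophages (BMDM) of C57BL/6J mice, primary cells that had all received 100 ng/ml lipid A, the part of bacterial lipopolysaccharide that Toll-like receptor 4 recognises, for 120 min. Total RNA of the cytosolic fraction was depleted of ribosomal RNA and sequenced in 3 libraries of 1 group, the biological replicates 1, 2 and 3. Untreated cells, other times and other fractions are not analysed here, so no value below is a response to lipid A. The labels give all 3 libraries the same donor identifier and no sex or age, and do not say that the replicates came from separate animals, so the spread between them may be technical. How the fraction was prepared is not described in those labels.

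The gene tables held 31152786, 114031592 and 59693298 expected counts in replicates 1, 2 and 3, and the lowest count of any of the 41 genes in a library was 270. Genes that mark macrophages were present in every library: 10 of 10 were detected, with a summed level of 5538 to 6042 TPM and Lyz2 as the highest. TPM is an abundance of transcripts scaled for gene length and for the total of a library. Markers of other cells were low. The summed level was 32.8 to 43.1 TPM for 9 neutrophil genes (highest S100a9), 18.02 to 19.2 TPM for 11 lymphocyte genes (nearly all Cd4), 1.02 to 1.48 TPM for 6 dendritic cell genes (highest Xcr1) and 0.46 to 0.53 TPM for 8 stromal genes (highest Cdh5). In bulk RNA, fewer cells of a type and less RNA per cell cannot be told apart.

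Lysosomes are acid compartments in which hydrolases break down lipids, glycans, proteins and nucleic acids, and macrophages are rich in them because they digest what they engulf. Most soluble hydrolases are made at the endoplasmic reticulum, receive a mannose 6-phosphate tag in the Golgi and are carried to lysosomes by receptors for that tag, while a proton pump keeps the lumen acid. TFEB and its relatives MITF and TFE3 bind E-box sequences in promoters of lysosomal genes, within a longer palindrome known as the CLEAR element, and TFEC is a relative found mainly in macrophages. Inherited loss of many of these genes causes a lysosomal storage disease.

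The core of that E-box, CACGTG, was searched for in promoter windows of the RefSeq annotation, build GRCm38.p6, which run from 250 bases before to 50 bases after each start of a gene. Of the 41 genes, 37 had a window; Galns, Asah1, Aga and Npc1 had none. CACGTG, which reads the same on both strands, stood in a window of 9 of the 37 genes (24.3%). It stood in a window of 12.8% of 6601 other detected protein-coding genes and of 8.09% of all 27025 genes with a window. Genes with several starts have several windows, and a match in any of them was counted. TCACGTG, which contains CACGTG and was searched on both strands, was held by the same number, 9 of 37, against 7.92% of the other detected genes and 4.29% of all genes. TCACGTGA, a palindrome that contains both, was held by 2 of 37 genes (5.41%), Gla and Mcoln1, against 2.58% of the other detected genes and 1.12% of all genes. Other letter strings served as a comparison. The GC-box string GGGCGG was held by 27 of 37 (73.0%), against 71.5% of the other detected genes, and TATAAA by 4 of 37 (10.8%), against 8.48%. A match describes letters in a window and shows no binding.

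The windows around each CACGTG are shown because they place the recognition sequence of the TFEB family relative to the start of these genes. The Gla windows and the second Mcoln1 window follow a rule to show the longer palindrome, and the others were chosen after the matches were seen. Each is written 5′ to 3′ on the strand of the gene, with CACGTG in capitals.
Lamp1, chr8:13159091-13159160, plus strand: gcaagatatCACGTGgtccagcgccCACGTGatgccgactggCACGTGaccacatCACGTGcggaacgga
Gla, match 1, chrX:134601215-134601244, minus strand: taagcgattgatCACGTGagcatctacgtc
Gla, match 2, chrX:134601182-134601211, minus strand: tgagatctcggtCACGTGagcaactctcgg
Mcoln1, match 1, chr8:3500436-3500465, plus strand: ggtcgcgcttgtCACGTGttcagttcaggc
Mcoln1, match 2, chr8:3500462-3500491, plus strand: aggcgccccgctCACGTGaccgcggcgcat
Lgmn, chr12:102439124-102439153, minus strand: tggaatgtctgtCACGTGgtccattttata
Naglu, chr11:101070009-101070038, plus strand: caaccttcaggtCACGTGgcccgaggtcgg
Glb1, chr9:114401018-114401047, plus strand: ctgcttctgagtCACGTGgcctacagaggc
Gaa, chr11:119267811-119267840, plus strand: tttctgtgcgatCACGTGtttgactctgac
Sgsh, chr11:119355522-119355551, minus strand: gggcctgccgtgCACGTGaccgtggggagc
Arsa, chr15:89477423-89477452, minus strand: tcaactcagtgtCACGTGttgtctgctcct

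Lamp1 held 4 copies of CACGTG, the first bases of which lay at -61, -45, -28 and -15 from the RefSeq start. Of the 27025 genes with a window, 6 held at least 4 copies and 184 at least 2, and the genes described here with at least 2 were Lamp1, Gla and Mcoln1. In Gla the copies lay at -227 and -194 and in Mcoln1 at -71 and -45. The single copies lay at -140 in Gaa, -73 in Naglu, -49 in Lgmn, -48 in Glb1, -29 in Sgsh and -16 in Arsa. Lgmn has more than 1 RefSeq start, and its copy lies by the downstream one. The place of a copy depends on the start used. Counted from the outermost GENCODE start of each gene, 3 of the 14 copies lay at or after it: those of Lgmn, at 672, and Naglu, at 9, and the second of Mcoln1, at 17. The Gla copies lay at -107 and -74 by that count. The genes with a match covered a wide range of levels, with Lamp1 and Lgmn among the highest of the 41 and Sgsh and Arsa among the lowest.

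**Figure D1:**
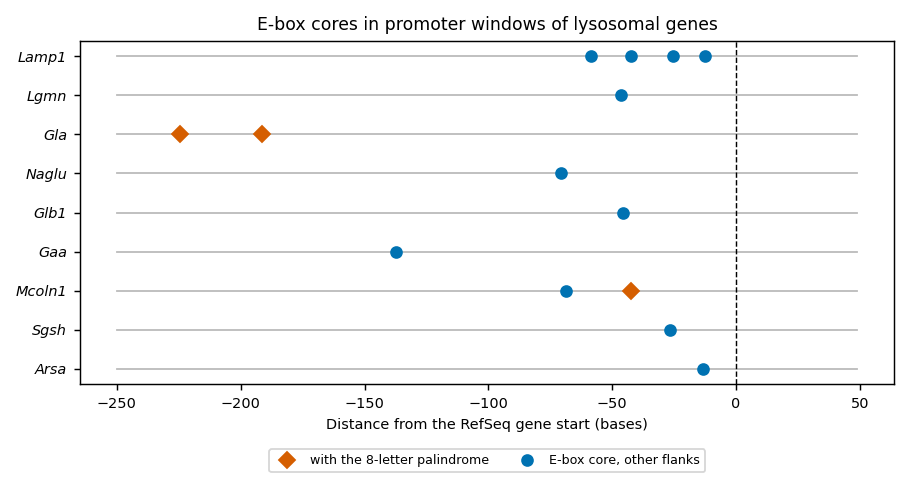
Position of each CACGTG (E-box core) in the promoter windows of the 9 genes that hold one, as the distance in bases from the RefSeq start (dashed line at 0); the grey lines are the windows and diamonds mark copies inside the longer palindrome TCACGTGA. Lamp1 holds 4 copies within 61 bases of its start, and the diamonds are both copies in Gla and 1 of the copies in Mcoln1.

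All 41 genes were detected, at a TPM of at least 1 in every library, where 37.6% of the 22015 nuclear protein-coding genes were. They were mostly abundant. The median of the 41 was 34.2, 29.5 and 32.2 TPM in replicates 1, 2 and 3, a mean of 32.0 ± 2.38 TPM (SD, n = 3), beside a median of 6.84 TPM over the 8281 detected protein-coding genes. At least 10 TPM in every library was reached by 31 of the 41 and by 35.5% of the detected genes, at least 100 TPM by 10 and by 3.93%, and at least 500 TPM by 3 and by 0.507%. By rank among the detected genes, 29 of the 41 lay above the 75th percentile and 16 above the 90th, and the median percentile was 87.1. Together they took 3.27%, 3.41% and 3.49% of the TPM of nuclear protein-coding genes in replicates 1, 2 and 3, which is 3.39% ± 0.107 (SD, n = 3). These counts describe a list that was named in view of earlier results, and no test of its difference from other genes was made.

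One gene made up much of that total. Psap encodes prosaposin, the precursor of the saposins that present sphingolipids to their hydrolases, and lies on chromosome 10 at 60277627 to 60302597 (mm10). It had 3807, 3602 and 3952 TPM in replicates 1, 2 and 3, and the libraries lay within 10% of one another. This was 50.4% ± 1.01 of the TPM of the 41 genes (SD, n = 3), and 6.63 times the mean of the next gene, Grn. Among the 8281 detected protein-coding genes Psap ranked 4 by mean TPM, after both ferritin chains and Lyz2 and before the cathepsins Ctsd and Ctsb. Psap lay below Lyz2 in replicates 1 and 2 but above it in replicate 3, at 3952 against 3781 TPM, so the order of these genes was not resolved. With Grn, Lamp1, Lgmn and Laptm5, Psap held 75.8% ± 0.237 of the TPM of the 41 (SD, n = 3). The mean level of Psap was 2022 times that of Tfeb, the lowest of the 41, whose level is uncertain as given below.

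**Figure D2:**
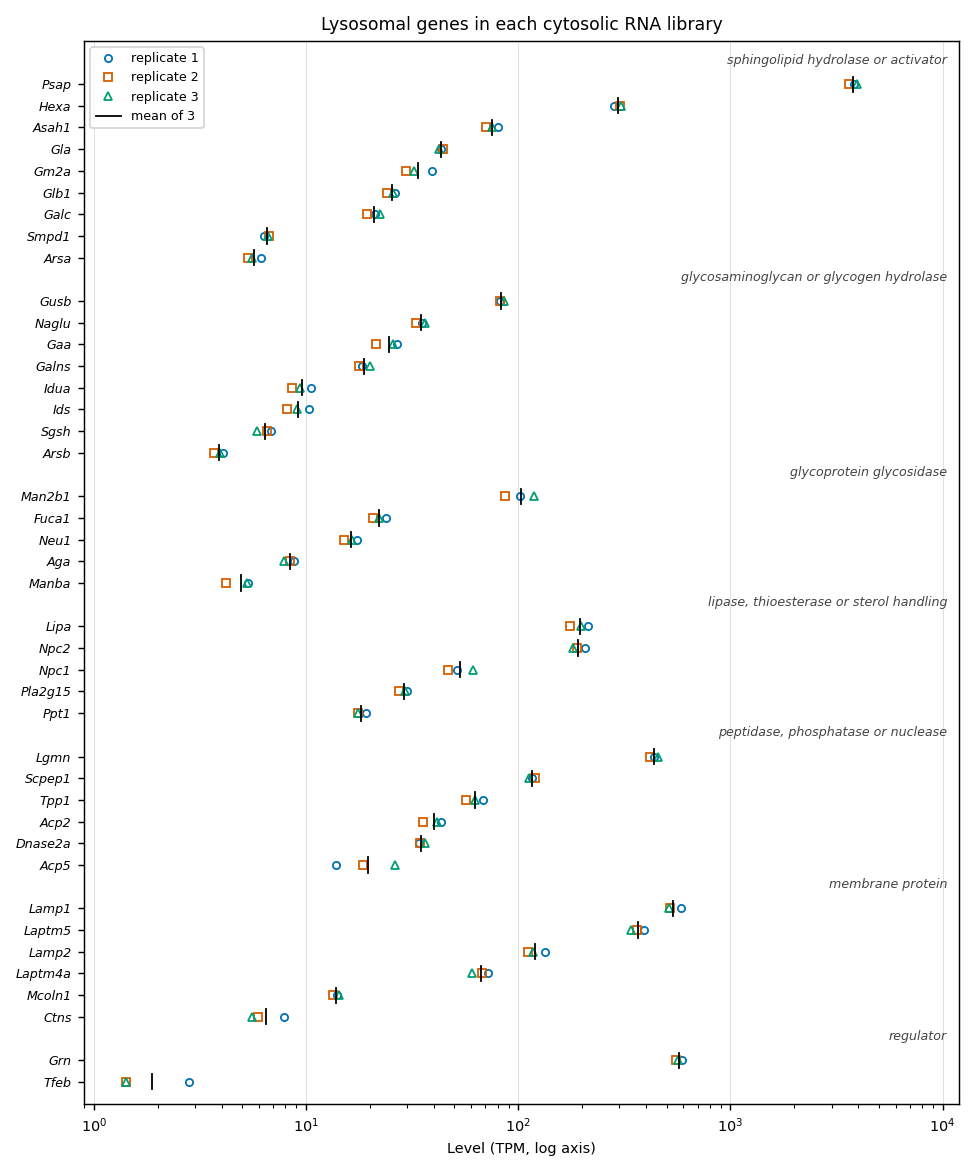
Level of each of the 41 genes in the 3 libraries (TPM, log axis), grouped by role and ordered by mean within each role; symbols are replicates 1, 2 and 3 and the black bar is their mean. Psap lies apart at 3602 to 3952 TPM, Tfeb lies at 1.41 to 2.80 TPM, and the symbols of most genes nearly coincide, with Acp5 and Tfeb the most spread.

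The other hydrolases and activators of sphingolipid breakdown were spread widely. Hexa, which encodes the alpha subunit of beta-hexosaminidase, the enzyme missing in Tay-Sachs disease, had 284, 301 and 303 TPM in replicates 1, 2 and 3. Replicate 1 was the lowest, and the libraries lay close together. Gm2a, the activator that lifts the ganglioside GM2 to that enzyme, had 39.1, 29.5 and 32.2 TPM, highest in replicate 1. The acid ceramidase gene Asah1 averaged 75.5 ± 4.84 TPM, the alpha-galactosidase gene Gla 43.2 ± 0.787 TPM and the beta-galactosidase gene Glb1 25.3 ± 1.14 TPM (SD, n = 3 each). Galc, which encodes galactosylceramidase, was at 21.02 ± 1.496 TPM. The acid sphingomyelinase gene Smpd1 at 6.55 ± 0.203 TPM and the arylsulfatase A gene Arsa at 5.66 ± 0.417 TPM were the lowest of this role and lay below the median of detected genes (SD, n = 3 each).

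Hydrolases of glycosaminoglycans and glycogen had moderate to low levels, with a role median of 14.1 ± 0.829 TPM (SD, n = 3). Gusb, the beta-glucuronidase gene, was the highest, at 82.2, 82.3 and 85.7 TPM in replicates 1, 2 and 3, values close in all libraries. Naglu averaged 34.7 ± 1.74 TPM; it encodes the N-acetylglucosaminidase of heparan sulfate breakdown. Gaa, the acid alpha-glucosidase that digests glycogen, averaged 24.6 ± 2.90 TPM, and the sulfatase gene Galns 18.7 ± 1.21 TPM (SD, n = 3 each). The iduronidase gene Idua averaged 9.52 ± 0.965 TPM, the iduronate sulfatase gene Ids 9.15 ± 1.08 TPM and the sulfamidase gene Sgsh 6.44 ± 0.484 TPM. Arsb, the arylsulfatase B gene, was the lowest hydrolase of the 41, at 4.06, 3.69 and 3.93 TPM.

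Among the glycosidases of glycoproteins the alpha-mannosidase gene Man2b1 stood highest, at 102.3, 86.5 and 119 TPM in replicates 1, 2 and 3, with replicate 3 above the others. The beta-mannosidase gene Manba had 5.30, 4.21 and 5.27 TPM. Between them lay the fucosidase gene Fuca1 at 22.2 ± 1.59 TPM, the sialidase gene Neu1 at 16.4 ± 1.15 TPM and the aspartylglucosaminidase gene Aga at 8.37 ± 0.473 TPM (SD, n = 3 each). Neu1 and Glb1 encode enzymes that work in a complex with the protective protein cathepsin A. The gene of that protein, Ctsa, had 11.3-fold ± 0.853 the level of Glb1 and 17.6-fold ± 1.74 that of Neu1, and Glb1 had 1.55-fold ± 0.0407 that of Neu1 (SD, n = 3 each).

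Genes of lipid release and sterol export were high. Lipa, the lysosomal acid lipase gene, had 212, 175 and 197 TPM in replicates 1, 2 and 3, lowest in replicate 2. Npc2, which encodes the soluble protein that hands cholesterol to NPC1, had 206, 189.8 and 181 TPM, highest in replicate 1. Npc1, the membrane transporter gene that receives it, had 51.6, 46.8 and 61.0 TPM, and the gene ranges did not overlap. Npc2 exceeded Npc1 by 3.67-fold ± 0.612 (SD, n = 3), an estimate that a retained-intron transcript of Npc1 touches, as given below. The phospholipase gene Pla2g15 averaged 28.9 ± 1.33 TPM and the palmitoyl thioesterase gene Ppt1 18.2 ± 0.889 TPM (SD, n = 3 each).

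Of the peptidases, phosphatases and nuclease, Lgmn led. It encodes legumain, an asparaginyl endopeptidase that also processes cathepsins, and had 435, 416 and 455 TPM in replicates 1, 2 and 3, the libraries close together. The serine carboxypeptidase gene Scpep1 averaged 116.5 ± 3.59 TPM and the tripeptidyl peptidase gene Tpp1 62.5 ± 5.73 TPM. Acp2, the lysosomal acid phosphatase gene, averaged 40.1 ± 3.91 TPM and Dnase2a, the acid DNase gene, 34.9 ± 1.19 TPM (SD, n = 3 each). The tartrate-resistant acid phosphatase gene Acp5 had 13.8, 18.6 and 26.1 TPM, so replicate 3 had nearly double the level of replicate 1, and it is taken up again with the spread between libraries.

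Lysosomal membrane protein genes had the highest median of the roles with more than a pair of genes, at 93.6 ± 7.82 TPM (SD, n = 3). Lamp1, which encodes a heavily glycosylated protein of the limiting membrane, had 583, 518 and 516 TPM in replicates 1, 2 and 3. Its relative Lamp2 had 133, 112 and 117 TPM; both were highest in replicate 1, and Lamp1 exceeded Lamp2 by 4.48-fold ± 0.147 (SD, n = 3). Laptm5, a transmembrane protein gene of blood cells, had 393, 362 and 341 TPM, and its broadly expressed relative Laptm4a averaged 66.7 ± 5.71 TPM. The cation channel gene Mcoln1 averaged 13.9 ± 0.430 TPM and the cystine exporter gene Ctns 6.45 ± 1.24 TPM (SD, n = 3 each).

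Grn and Tfeb lay at opposite ends of the range. Grn, which encodes progranulin, a secreted and lysosomal precursor of granulins, had 588, 556 and 569 TPM in replicates 1, 2 and 3. Grn exceeded Lamp1 within each library, though their ranges overlapped. In the second deposited quantification Lamp1 had 237.3, 213.8 and 145.4 TPM and Grn 224.9, 206.5 and 147.9 TPM in replicates 1, 2 and 3. Their order therefore depended on the quantification and was not resolved. Tfeb had 2.80, 1.41 and 1.41 TPM on 270, 588 and 293 expected counts, with replicate 1 double the other libraries. In each library the deposited TPM of Tfeb lay below the lower bound of its own deposited credibility interval, which ran from 3.19 to 5.06, from 1.47 to 1.93 and from 1.60 to 2.47 TPM. No other gene of the 41 lay below its interval, while 9, 3 and 7 genes lay above theirs, so the deposited values of Tfeb do not settle its level. Its relatives were all higher: Tfec, at 58.2 ± 5.49 TPM, exceeded Tfeb by 33.8-fold ± 9.80, Tfe3 by 11.2-fold ± 2.21 and Mitf by 10.6-fold ± 3.09 (SD, n = 3 each). These folds divide by the deposited TPM of Tfeb and are as uncertain as that level, which the SD between libraries does not cover.

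The other genes of the lysosomal system, taken from lists chosen by function, were nearly all present too. Of 13 cathepsin genes, which encode the main lysosomal proteases, 10 were detected. Ctsd at 2405 ± 41.3, Ctsb at 2063 ± 69.3, Ctss at 732 ± 85.7 and Ctsz at 415 ± 8.84 TPM were the highest, while Ctse at 0.420 ± 0.0954 and Ctsw at 0.0367 ± 0.0462 TPM were the lowest (SD, n = 3 each). All 17 genes of the vacuolar proton pump were detected, led by Atp6v0c at 425 ± 11.6, Atp6v0b at 137 ± 7.19, Atp6v1a at 127 ± 3.55 and Atp6v1g1 at 97.5 ± 6.78 TPM (SD, n = 3 each). The pump genes Atp6v1d at 28.8 ± 4.44 and Atp6v0a2 at 3.44 ± 0.140 TPM were the lowest. Of 29 other lysosomal proteins 27 were detected, led by Cd68 at 545 ± 20.5, Pld3 at 284 ± 17.7 and Cd63 at 262 ± 14.1 TPM (SD, n = 3 each). Plbd1 averaged 0.577 ± 0.247 TPM (SD, n = 3), and Lamp3, a relative of Lamp1 and Lamp2 known from dendritic cells, had 0 counts in each library, which allows up to 0.0963, 0.0263 and 0.0503 CPM (counts scaled to the library total) at these depths, for counting error only.

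Genes of delivery had a low median. All 13 genes of enzyme delivery and activation were detected, with a median of 10.3 ± 0.678 TPM (SD, n = 3). The cation-dependent mannose 6-phosphate receptor gene M6pr was the highest at 72.5 ± 5.96 TPM, followed by the adaptor genes Ap1b1 at 23.4 ± 1.69 and Ap3b1 at 23.3 ± 0.493 TPM and the larger receptor gene Igf2r at 21.5 ± 4.88 TPM (SD, n = 3 each). Gga3 at 3.21 ± 0.703 and Sumf2 at 1.81 ± 0.153 TPM were the lowest. Gnptab, which encodes the enzyme that starts the mannose 6-phosphate tag, had 9.48, 9.57 and 10.9 TPM, and M6pr exceeded it by 7.30-fold ± 0.885 (SD, n = 3). Of 18 genes of the TFEB family and of nutrient sensing at the lysosome, 16 were detected. Tfec, Rragc at 47.6 ± 6.62, Lamtor1 at 43.2 ± 1.22 and Fnip2 at 42.1 ± 8.43 TPM were the highest, and Zkscan3 at 1.28 ± 0.252 and Rragb at 0.120 ± 0.0300 TPM the lowest (SD, n = 3 each).

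Set beside these lists, the 41 genes were lower in median than the cathepsins and the proton pump and higher than the other lists. On the scale of log2(TPM + 1), the median of the 41 minus the median of the list was -2.41 ± 0.11 for cathepsins and -1.13 ± 0.05 for the pump. It was 0.88 ± 0.14 for other lysosomal proteins, 0.99 ± 0.11 for the TFEB family and nutrient sensing and 1.54 ± 0.07 for delivery and activation (SD, n = 3 each). Each sign was shared by the 3 libraries. The lists were not drawn at random, so these differences are descriptions without a test.

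**Figure D3:**
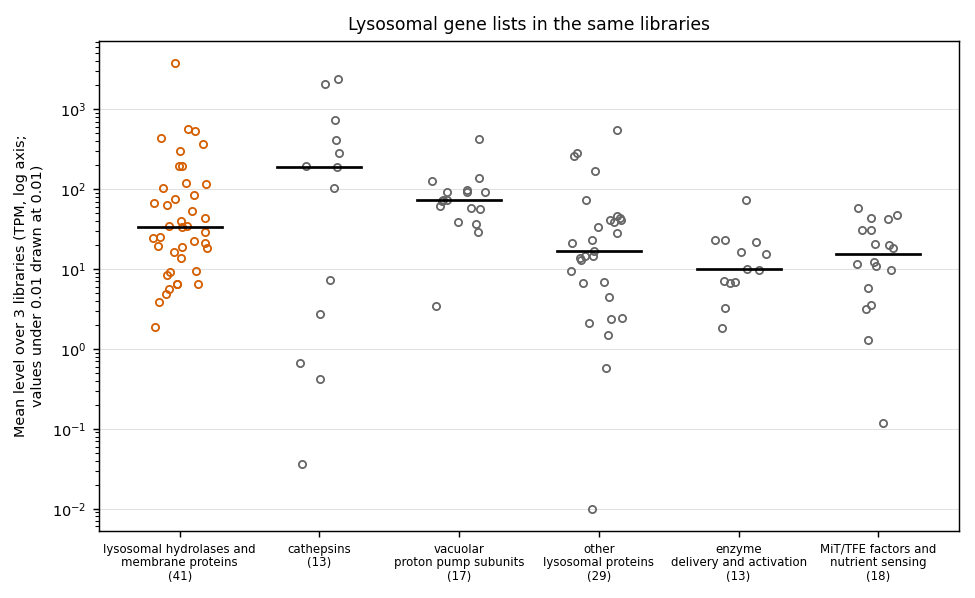
Mean level over the 3 libraries (TPM, log axis) of the 41 lysosomal hydrolase and membrane protein genes, left, and of 5 other lists of lysosomal genes; each circle is a gene, the bar is the median over genes, the number of genes is in brackets and values under 0.01 are drawn at 0.01. The cathepsins and the proton pump have higher medians than the 41 genes, and Psap is the highest circle.

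The spread between the 3 libraries was small for most of the 41 genes. At these depths counting error is minor, and 35 of the 41 varied beyond it in a Poisson dispersion test with Benjamini-Hochberg adjustment over 14037 genes, where 62.1% of all tested genes did. The 6 that did not pass were Neu1, Arsa, Manba, Tpp1, Idua and Arsb. A tested gene needed a mean count of only 10, while the lowest count of any of the 41 in a library was 270. This test detects smaller differences at higher counts, so the shares were not compared at like abundance. The size of the variation was modest. On CPM with TMM scaling, a scaling between libraries that trims extreme genes, the highest library exceeded the lowest by a median factor of 1.12, beside 1.17 over 8583 protein-coding genes whose TPM averaged 1 or more. That factor reached 1.5 for 2 of the 41 genes, Acp5 and Tfeb, and for 6.7% of the 8583 genes. It stayed below 1.1 for 17 of the 41 and for 25.3% of the 8583. The 8583 genes were not matched to the 41 in abundance either. The median edgeR biological coefficient of variation per gene was 0.105 for the 41 and 0.115 for the 8583 genes. It sizes variation beyond counting error, but each gene's value is drawn toward the trend of all genes. Tpp1 and Neu1, which did not pass the counting test, still had 0.0982 and 0.0879. The medians therefore do not measure the spread of these genes alone.

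Replicate 2 was often the lowest library by TPM and often the highest by TMM-scaled counts. By TPM 27 of the 41 genes were lowest in replicate 2, as were 63.3% of the 8583 genes; the median difference in log2(TPM + 1), replicate 2 minus replicate 1, was -0.12 over the 41 and -0.17 over those genes. By TMM-scaled CPM, 22 of the 41 were highest in replicate 2, and 40.96% of the 8583. Mitochondrially encoded RNA took 0.376% of TPM in replicate 2, against 1.80% and 1.41% in replicates 1 and 3; its part in these differences was not tested. Small differences between libraries in the levels above can therefore depend in sign on the scaling, and only Acp5 and Tfeb are followed further.

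Acp5 was the gene of the 41 that differed most between libraries. It lies on chromosome 9 at 22126727 to 22135711 on the minus strand and had 872, 4864 and 3348 expected counts, which is 27.4, 44.0 and 56.1 TMM-scaled CPM in replicates 1, 2 and 3. The highest library exceeded the lowest by 2.05-fold, and the order of the libraries was the same by TPM. In the second quantification Acp5 had 5.72, 7.67 and 7.36 TPM, with replicate 1 again the lowest but replicate 2 the highest. Replicate 3 was also low there for genes whose gene-table TPM was close in all libraries. Gusb had 32.5, 32.8 and 23.5 TPM and Hexa 119, 124 and 85.2 TPM in that quantification. The lower place of replicate 3 is therefore not particular to Acp5. Acp5 was the only gene of the 41 to vary beyond the edgeR dispersion trend of genes of like abundance, with a Benjamini-Hochberg adjusted p of 0.022 over 14037 genes, of which 2.76% passed. That call rested on single libraries and on the quantification. These p-values come from a chi-square dispersion test at the edgeR trended dispersion. In that test the adjusted p was 0.866 without replicate 1, 0.0128 without replicate 2 and 0.329 without replicate 3. It was 0.150 with the counts of the second deposited quantification. Tfeb, at 8.48, 5.32 and 4.91 TMM-scaled CPM, differed by 1.73-fold and did not pass, with an adjusted p of 0.517 in the same chi-square test.

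Acp5 is best known as a marker of osteoclasts, the bone-resorbing cells of the same lineage, so other genes of that cell type were read beside it. Of 9 osteoclast genes 3 were detected, and their summed level was 52.6, 41.7 and 55.2 TPM in replicates 1, 2 and 3, lowest in replicate 2. Most of this sum was Atp6v0d2, a pump subunit gene that macrophages also express, at 42.1, 31.8 and 43.5 TPM. On TMM-scaled CPM, where Acp5 was lowest in replicate 1 and highest in replicate 3, Atp6v0d2 had 172, 153 and 191. The osteoclast transcription factor gene Nfatc1 had 52.6, 56.1 and 64.4 on that scale and the integrin gene Itgb3 24.7, 33.3 and 33.5, both in the order of Acp5 and by smaller factors. By TPM, however, Nfatc1 was lowest in replicate 2, at 6.81, 6.31 and 7.59 in replicates 1, 2 and 3. Itgb3 kept the order of Acp5 by TPM, at 2.51, 2.88 and 3.17. The part of such cells in the Acp5 difference was not tested. The other genes of the list were below detection: Ctsk averaged 0.663 ± 0.162, Mmp9 0.113 ± 0.0451, Dcstamp 0.127 ± 0.0551, Oscar 0.04 ± 0.0608 and Ocstamp 0.0233 ± 0.0115 TPM (SD, n = 3 each), and the calcitonin receptor gene Calcr had 0 counts in every library. On TMM-scaled CPM, Ctsk had 1.916, 1.519 and 1.425 in replicates 1, 2 and 3. Mmp9 had 0.8482, 0.3254 and 0.6035, and Dcstamp 0.5655, 0.2893 and 0.285. At low counts, Ctsk, Mmp9 and Dcstamp were thus highest in replicate 1, where Acp5 was lowest. Oscar went the other way, at 0, 0.01 and 0.11 TPM on 0, 4 and 2 counts. Ctsk and Dcstamp did not vary beyond counting error in the Poisson test, so their order between libraries was not resolved.

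**Figure D4:**
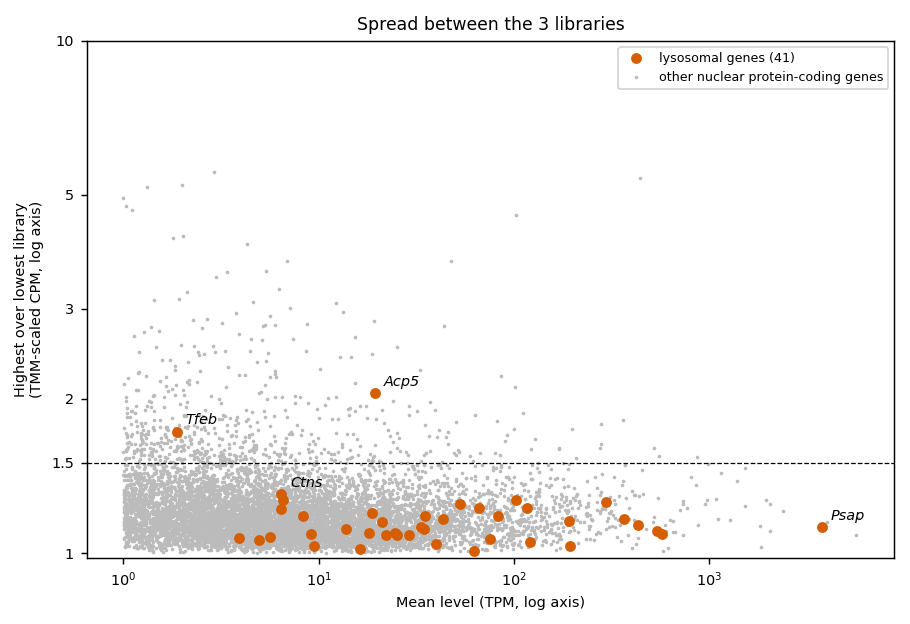
Highest over lowest of the 3 libraries (TMM-scaled CPM, log axis) against mean level (TPM, log axis) for the 41 lysosomal genes, in orange, and the other protein-coding genes whose TPM averaged 1 or more, in grey. The dashed line is the factor of 1.5, above which Acp5 at 2.05 and Tfeb at 1.73 lie.

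In transcripts, most of the 41 genes were carried by a single form. A transcript's share is the percent of its gene's TPM. In 31 of the 41 the leading transcript held at least 80% of the gene's TPM on average, and in 52.0% of the detected protein-coding genes. The leading transcript could differ between the deposited quantifications only where a gene has several. It was the same for 36 of the 37 with more than 1 annotated transcript, beside 89.9% of the detected genes with more than 1. The leading transcript was not annotated as protein-coding in 1 of the 41, Arsa, beside 4.44% of the detected genes. Retained-intron transcripts held 0.586% of the TPM of the 41 genes, beside 3.41% over the detected genes, in a sum that Psap dominates.

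Psap was divided between a pair of first exons. Psap-202 held 56.3%, 56.6% and 64.4% of the gene in replicates 1, 2 and 3, and Psap-203 held 41.2%, 40.4% and 32.9%. Psap-202 led in every library, and in the second quantification it held 68.3% ± 4.78 (SD, n = 3). The transcripts share 12 of 14 exons and all coding sequence after the first exon, which is separate and holds the start codon in both, so their coding lengths are 1662 and 1653 bases. These coding starts from the GENCODE M21 transcripts, mm10, plus strand, show how the leading forms of the most abundant gene differ; the start codon is in capitals.
Psap-202, chr10:60277743-60277782: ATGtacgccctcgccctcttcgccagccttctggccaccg
Psap-203, chr10:60284501-60284531: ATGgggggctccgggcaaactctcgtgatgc

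Lamp2 was divided between a pair of last exons. Lamp2-202 held 53.9%, 50.1% and 55.1% and Lamp2-201 held 44.2%, 49.1% and 43.0% of the gene in replicates 1, 2 and 3. In the second quantification their mean shares were 48.2% ± 3.17 and 50.03% ± 4.02 (SD, n = 3 each), so which of them leads was not resolved. They share 8 exons, and each has its own last exon with a coding part of 140 bases including the stop codon, for the end of the protein that spans the membrane and faces the cytosol. LAMP2 is known to occur as isoforms A, B and C that differ in this end, A being the form used in chaperone-mediated autophagy. Compared with each other, 2345 exonic bases belong to Lamp2-202 alone and 510 to Lamp2-201 alone, of which 137 in each are coding. The split of the gene thus rests on noncoding bases as well. The coding parts of both last exons, minus strand, are shown because the coding sequences differ there. The stop codon is in capitals.
Lamp2-202, chrX:38421712-38421851: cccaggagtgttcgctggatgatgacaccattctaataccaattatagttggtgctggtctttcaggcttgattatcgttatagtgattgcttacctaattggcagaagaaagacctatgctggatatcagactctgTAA
Lamp2-201, chrX:38405432-38405571: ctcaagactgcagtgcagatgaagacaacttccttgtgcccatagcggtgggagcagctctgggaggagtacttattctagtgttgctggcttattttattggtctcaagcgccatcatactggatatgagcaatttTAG

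In Lgmn, Acp5 and Gaa the leading pair of transcripts had the same coding length and differed outside it. Lgmn-201 held 53.3% ± 1.87 and Lgmn-202 46.5% ± 1.92, and Acp5-201 held 52.5% ± 4.45 and Acp5-202 45.3% ± 3.13 (SD, n = 3 each). Both Acp5 transcripts were highest in replicate 3, at 13.3 and 12.2 TPM, and lowest in replicate 1, at 7.95 and 5.76 TPM, so the difference between the libraries was not carried by 1 of them. Gaa-203 held 49.8% ± 2.29 and Gaa-201 49.2% ± 1.77 (SD, n = 3 each), and their order changed without replicate 2. In the second quantification Lgmn-201 held 68.7% ± 4.22 and Lgmn-202 31.1% ± 4.28 (SD, n = 3 each). Gaa-203 held 66.4% ± 6.02 and Gaa-201 32.6% ± 5.28 in that quantification, so neither near-even split held in it (SD, n = 3 each). The Acp5 transcripts stayed closer, at 50.6% ± 1.89 and 42.8% ± 0.954 (SD, n = 3 each). In Tfeb the leading pair differed in coding length, with 1425 bases in Tfeb-202 at 54.3% ± 7.25 and 1002 bases in Tfeb-212 at 42.3% ± 5.20 (SD, n = 3 each). In the second quantification Tfeb-202 held 69.0% ± 8.61 and Tfeb-212 17.8% ± 9.95 (SD, n = 3 each), so the near-even split of Tfeb held in the gene-table source only. In that source replicate 1 held 1.35 TPM of Tfeb-212, against 0.56 and 0.54 TPM in replicates 2 and 3.

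Arsa was the gene with the largest share in a form annotated as noncoding. The retained-intron transcript Arsa-201 held 65.2%, 68.9% and 70.2% of the gene in replicates 1, 2 and 3, and the protein-coding Arsa-202 held 33.8%, 26.9% and 25.9%. In the second quantification the retained-intron form also led, at 62.5% ± 0.410, with Arsa-202 at 33.3% ± 1.72 (SD, n = 3 each). Compared with each other, 77 exonic bases belong to Arsa-201 alone and 870 to Arsa-202 alone. The protein-coding form thus had only 2.07, 1.43 and 1.43 TPM of the 5.66 TPM that the gene averaged. An antisense gene, C230037L18Rik, overlaps 18.8% of the exonic bases of Arsa and averaged 0.393 TPM; its part in the Arsa counts was not tested.

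The quantifications parted on other forms. The retained-intron transcript Npc1-206 held 32.6% ± 3.67 of Npc1 in the gene-table source but 2.86% ± 1.71 in the second quantification, and Npc1-201 held 66.2% ± 3.75 and 95.5% ± 1.64 (SD, n = 3 each). Idua-203, a shorter protein-coding form, held 23.4% ± 4.64 and 1.97% ± 2.09 beside Idua-202 at 72.6% ± 3.60 and 93.4% ± 2.82. Other genes went the other way. The share in the gene-table source and in the second quantification was 2.72% ± 1.33 and 20.98% ± 6.04 for Asah1-202, annotated as a target of nonsense-mediated decay. It was 11.8% ± 3.11 and 34.6% ± 3.48 for the noncoding Fuca1-205, and 10.2% ± 1.87 and 27.4% ± 3.84 for the retained-intron Acp2-202 (SD, n = 3 each). Shares of these forms are therefore uncertain. Gusb-201 at 75.3% ± 2.44 was the only other leader below 80% (SD, n = 3).

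**Figure D5:**
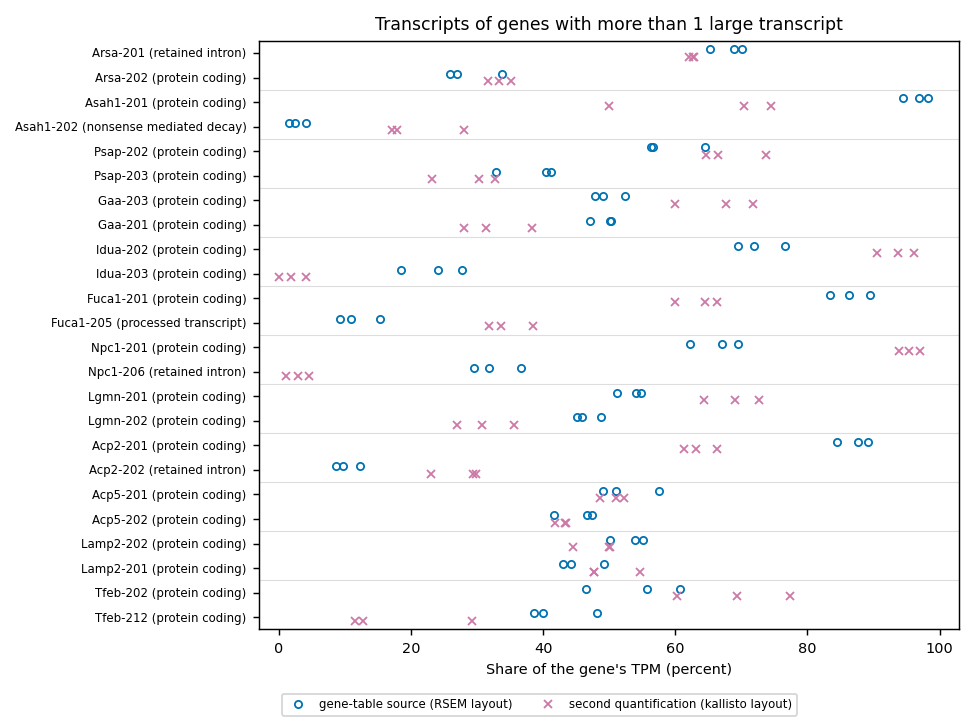
Share of the gene's TPM (percent) held by each transcript of the genes with more than 1 large transcript; circles are the 3 libraries in the gene-table source and crosses the same libraries in the second quantification. Arsa-201, a retained-intron form, leads its gene in both, while Npc1-206 and Idua-203 reach 20% on average only in the gene-table source.

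Some counts are shared with other genes. Of the 41, 11 had expected counts that were not whole, by more than 0.005, in some library, so part of their reads was divided with other features of the tables. Exons of 15 overlapped those of another gene, 14 on the opposite strand and 1, Glb1 with Tmppe, on the same strand. No source used here states whether the counting used strand, so reads of such pairs cannot be told apart with certainty. The partner exceeded 1 TPM in only 4 cases: Cap1 at 91.4 TPM over 129 exonic bases of Ppt1, Rmc1 at 4.90 TPM over 511 bases of Npc1, Tmppe at 1.73 TPM over 165 bases of Glb1 and Dgkq at 1.26 TPM over 124 bases of Idua. The level of Ppt1, at 18.2 TPM, is the one most exposed to a more abundant neighbour.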

How the data were processed

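The members and lists were chosen with earlier results of these data known. Per the file headers and the deposited listing (mm10, GENCODE M21), the authors deposited expected counts, TPM and FPKM per gene and transcript in the column layout of RSEM, and estimated counts and TPM per transcript in that of kallisto, called the second quantification. The bounds of the credibility interval are the authors' deposited signal values; transcript percents were recomputed here from deposited TPM. TPM divides by effective length and is scaled to the total of a library, so short RNAs can take a large part of that total. Their part was not measured here. The aligner is not given in the sources used here, nor are the versions of the authors' tools or the strandedness of the counting. Depth was 31152786 to 114031592 expected counts.

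Counts were rounded and scaled by TMM in edgeR 4.0.16 (R 4.3.3), with DESeq2 1.42.0 size factors as an alternative. A Poisson dispersion test (chi-square, 2 degrees of freedom, mean count of at least 10) and the same test at the edgeR trended dispersion ran over all genes, with Benjamini-Hochberg adjustment at 0.05, and were tested on simulated data. Other values came from Python 3.11.15 with pandas 2.3.3. All 41 members are named; of each pathway list the 4 highest and 2 lowest genes, of each marker list the highest and every osteoclast gene, and transcripts that lead or hold at least 20% in either quantification (leaders with 80% or more are only counted). An item that this rule names is not reported here. Promoters came from RefSeq and isoform sequences from GENCODE M21.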

Additional observations from a re-analysis of the deposited data

How the results depend on the processing

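Detection held for 41 genes under every library left out and for 38 at a minimum of 5 TPM and 40 in the second quantification. The count varying beyond counting error was 34 to 40 under other scalings, filters and counts, 24 to 32 with a library left out, and 1 against the edgeR trended dispersion; that 1 gene, in alternatives chosen after seeing the data, was 0 with the counts of the second quantification and 0 to 1 with a library left out. The median of the 41 depends on the unit: 11.99 TPM in the second quantification, 144 TPM rescaled to nuclear protein-coding genes and 60.8 FPKM. Their share was 3.97% by expected counts and 3.22% in the second quantification. Their median percentile was 86.3 to 87.6 with a library left out, 95.1 among all nuclear protein-coding genes, 81.6 in the second quantification and 86.5 by expected counts. All 41 levels moved beyond their spread in the second quantification, by a factor of 0.305 to 0.490, and on rescaling. The median factor was 0.3705 over the 41 and 0.3925 over protein-coding genes whose TPM averaged 1 or more, so the move was not particular to the 41. Absolute TPM is thus comparable within 1 table only. The leading transcript changed for Lamp2 in the second quantification and for Gaa without replicate 2. No paired analysis was possible because the series has 1 group. In the Poisson test 6 genes did not vary beyond counting error, which does not by itself make their levels uncertain. Tpp1 was among them, on 11785, 40702 and 22166 expected counts in replicates 1, 2 and 3. The half-width of the deposited credibility interval of Tfeb was 16.3% to 33.3% of its TPM. How much of that width is counting error was not tested.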

Other observations

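The E-box core CACGTG was also counted in the promoter windows of the other lysosomal lists. It stood in a window of 4 of 9 cathepsin genes with a window, 4 of 11 proton pump genes, 4 of 20 other lysosomal genes, 5 of 11 genes of enzyme delivery and activation, and 5 of 16 genes of the TFEB family and nutrient sensing. The longer palindrome TCACGTGA stood in 2, 3, 2, 3 and 0 genes of these lists in the same order, and in 2 of the 37 hydrolase and membrane protein genes. The lists hold few genes each and no test was made.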
